A study of Mus musculus with 15 samples.

Results

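The comparison set motor neurons of SMN-C3-treated mice with spinal muscular atrophy (SMA) against motor neurons of wild-type (WT) littermates, and asked what treatment did not return to the WT level. The groups compared were the 3 SMA+SMN-C3 and the 3 WT libraries, 6 of the 15 in the series, with the 3 vehicle-treated SMA libraries set beside them. SMA mice had no mouse Smn (Smn-/-;SMN2;SMNΔ7) and WT mice had both alleles (Smn+/+;SMN2;SMNΔ7). All of these mice, controls included, carried the human SMN2 and SMNΔ7 transgenes and were of FVB background, with males and females in equal proportions. SMN-C3 was injected into the peritoneum at 3 mg/kg daily from postnatal day 0, WT and SMA mice were given vehicle, and tissue was taken at postnatal day 6. The remaining libraries came from SMA mice given MW150 (5 mg/kg) or Pifithrin-alpha (2.2 mg/kg), with the same first and last days. They entered the filter, the scaling and the fit. Motor neurons of lumbar segments 1 to 3, marked with the tracer cholera toxin subunit B, were cut out by laser and sequenced as low-input poly(A) libraries with paired reads of 100 bases. The groups hold 3 biological replicates each per the labels, which do not say how many mice went into a library. The p-values thus measure the spread between libraries, estimated from all 15 in a single fit and not from the 6 compared alone.

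SMN is the core of a complex that loads Sm proteins onto the small nuclear RNAs of the spliceosome, and its shortage kills motor neurons in SMA. Human SMN2 makes mostly a transcript that lacks an exon, and SMN-C3 is a small molecule that raises inclusion of this exon and so the amount of full-length SMN. The transcription factor p53 drives genes of cell cycle arrest, DNA repair and cell death, and its activation is a known feature of motor neurons in SMA mice.

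Levels are TPM, transcript abundances corrected for length, scaled between libraries by the median of ratios, and a change is a difference of group means of log2(scaled TPM + 1), which understates the change of low genes. Of 36144 genes in the table, 15425 had at least 1 TPM in at least 3 of the 15 libraries and were tested. A gene was called at an adjusted p under 0.05 (limma, Benjamini-Hochberg adjustment over all genes tested).

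Between SMA+SMN-C3 and WT, 5 genes were called (0.0324% of those tested): Dcxr, Cdkn1a, Crip2 and Abhd11os were higher (0.0259%) and Smn1 was lower (0.00648%). An unadjusted p under 0.05 was found for 1598 genes (10.4%), 728 with higher (4.72%) and 870 with lower levels (5.64%) after treatment. In 2171 genes (14.1%) the treated libraries lay all above (962, 6.24%) or all below (1209, 7.84%) the WT libraries. The median change over all genes tested was -0.01.

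WT replicate 1 stood apart from the other libraries, so the calls and the list medians are given with and without it, as are the changes of some named genes. A change given once is from all libraries and may depend in part on this one. Mitochondrially encoded genes took 21.9% of its TPM, against 7.55% and 7.52% in the other WT libraries and 11.3%, 5.92% and 6.92% in SMA+SMN-C3. Its mean correlation with the other 14 libraries, across genes, was 0.870, against 0.913 to 0.956 for the rest. Without it 5 genes were again called: Dcxr, Smn1, Cdkn1a, Crip2 and the low gene Gm47937, while an unadjusted p under 0.05 was left for 746 genes, 274 higher and 472 lower.

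The motor neuron label was checked against 19 marker genes. Their summed level was 6527 to 8037 scaled TPM in WT, 6826 to 7413 in SMA+SMN-C3 and 4173 to 5586 in SMA, and none was at 0 in all libraries of a group. Markers of other cells were present as well: 13 astrocyte markers summed to 1947 to 3024 in WT and 2323 to 2685 in SMA+SMN-C3, and 14 oligodendrocyte markers to 762 to 2432 and 751 to 2240. Microglial markers (14 genes) summed to 90.0 to 115 in WT, 104 to 146 in SMA+SMN-C3 and 186 to 213 in SMA. In these bulk libraries fewer cells of a type and less RNA per cell cannot be told apart.

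Upstream sequences of 3 called genes are shown first, because p53 is known to act through a motif near the genes it drives. They are the 250 bases before the annotated start, read from RefSeq (GRCm38.p6), and capitals mark the p53 half-site, a degenerate motif of 10 bases whose pattern reads alike on both strands. The Cdkn1a window (chr17:29090729-29090978, plus strand) holds a pair of half-sites separated by at most 13 bases, starting at positions -73 and -51. The Dcxr window (chr11:120727285-120727534, minus strand) and the Crip2 window (chr12:113139986-113140235, plus strand) hold no match.
Cdkn1a: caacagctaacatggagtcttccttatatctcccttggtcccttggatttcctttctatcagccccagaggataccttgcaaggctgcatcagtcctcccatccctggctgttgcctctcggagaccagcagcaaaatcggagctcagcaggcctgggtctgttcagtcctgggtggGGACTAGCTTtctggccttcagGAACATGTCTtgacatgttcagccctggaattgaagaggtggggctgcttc
Dcxr: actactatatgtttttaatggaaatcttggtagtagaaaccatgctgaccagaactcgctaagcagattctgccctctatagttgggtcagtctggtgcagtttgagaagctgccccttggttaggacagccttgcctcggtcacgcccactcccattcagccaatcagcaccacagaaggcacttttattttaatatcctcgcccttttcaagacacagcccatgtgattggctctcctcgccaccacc
Crip2: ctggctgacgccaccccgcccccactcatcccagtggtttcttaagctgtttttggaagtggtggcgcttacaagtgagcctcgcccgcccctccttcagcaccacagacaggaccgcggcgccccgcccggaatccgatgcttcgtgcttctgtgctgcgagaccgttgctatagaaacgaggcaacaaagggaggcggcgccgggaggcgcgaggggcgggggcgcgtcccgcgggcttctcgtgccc

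A half-site occurs in 8.36% of all 32851 RefSeq windows of 300 bases (250 before and 50 after a start), and a pair in 24 windows (0.0731%). Of 50 windows that belong to 38 listed p53 target genes, 13 (26%) hold a half-site and 1 (2%), that of Cdkn1a, holds a pair. A match describes the letters only, and a window without one says nothing about binding elsewhere.

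The targeted gene came first. Smn1 (ENSMUSG00000021645.16, chromosome 13, 100124852 to 100137690, GRCm38) was at 11.4, 17.5 and 21.7 scaled TPM in WT, 0.111, 0 and 0.827 in SMA+SMN-C3 and 0.425, 0 and 0 in SMA. Both SMA groups were near 0 and far below every WT library, with a change of -3.77 between SMA+SMN-C3 and WT (SE 0.38, limma adjusted p = 2.9e-04). Mouse Smn1 is what the genotype removes and SMN-C3 acts on the human transcript, so this value checks the labels. Human SMN2 was not analysed here.

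Cdkn1a (ENSMUSG00000023067.14, chromosome 17, 29090976 to 29100727) encodes p21, the cyclin-dependent kinase inhibitor that p53 induces. It was at 45.7, 50.1 and 41.5 scaled TPM in WT, 347, 334 and 333 in SMA+SMN-C3 and 1314, 1002 and 529 in SMA. The treated libraries lay within a narrow band, above every WT and below every SMA library. Their mean was 7.39 times that of WT (45.8 ± 4.3 against 338 ± 7.6, SD, n = 3 each), a change of 2.86 (SE 0.32, limma adjusted p = 4.3e-04). Against SMA the mean was 2.81 times lower, with a change of -1.39 (SE 0.32) that did not pass (limma adjusted p = 0.17).

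A pair of transcripts with different starts carried the Cdkn1a level. Cdkn1a-202, whose start is that of the window with the p53 pair, was at 27.3, 31.7 and 14.5 scaled TPM in WT, 204, 186 and 208 in SMA+SMN-C3 and 867, 669 and 261 in SMA. Cdkn1a-201, whose start lies downstream and whose window holds no half-site, was at 16.7, 18.4 and 26.1 in WT, 140, 147 and 124 in SMA+SMN-C3 and 442, 328 and 261 in SMA. In the treated libraries the first made up 59.0% and the second 40.5% of the gene, so both starts remained above WT. The split between transcripts is the authors' estimate from reads that the transcripts largely share.

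Dcxr (ENSMUSG00000039450.11, chromosome 11, 120725399 to 120727281), the dicarbonyl and L-xylulose reductase, is a metabolic enzyme listed among the p53 targets. It was at 21.8, 12.6 and 12.9 scaled TPM in WT, 119, 118 and 101 in SMA+SMN-C3 and 436, 237 and 191 in SMA. As for Cdkn1a, the 3 groups were ordered without overlap, with treated libraries between the other 2 groups. The change from WT was 2.80 (SE 0.30, limma adjusted p = 4.3e-04), 7.15 times in the ratio of means. From SMA it was -1.26 (SE 0.30, limma adjusted p = 0.21).

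Crip2 (ENSMUSG00000006356.10, chromosome 12, 113140236 to 113145506) encodes a cysteine-rich protein with LIM domains. It was at 16.2, 26.8 and 19.4 scaled TPM in WT, 96.3, 87.4 and 133 in SMA+SMN-C3 and 463, 235 and 177 in SMA. The groups again did not overlap, and the treated mean was 5.07 times that of WT, a change of 2.29 (SE 0.32, limma adjusted p = 0.0087). The call was lost without SMA+SMN-C3 replicate 1 or replicate 3, while the change ranged from 2.11 to 2.49 over all alternatives.

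Abhd11os (ENSMUSG00000085042.8, chromosome 5, 135012114 to 135013253) is annotated as a transcribed unitary pseudogene that overlaps Abhd11 on the other strand, and without strand reads of the 2 genes cannot be told apart. It was at 4.72, 8.60 and 2.80 scaled TPM in WT, 30.6, 31.9 and 25.4 in SMA+SMN-C3 and 103, 41.1 and 41.4 in SMA. All treated libraries were above WT and below SMA, with a change from WT of 2.34 (SE 0.38, limma adjusted p = 0.036). The call held in 1 of 6 fits that each left out 1 library and in 9 of 18 alternatives in all.

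**Figure D1:**
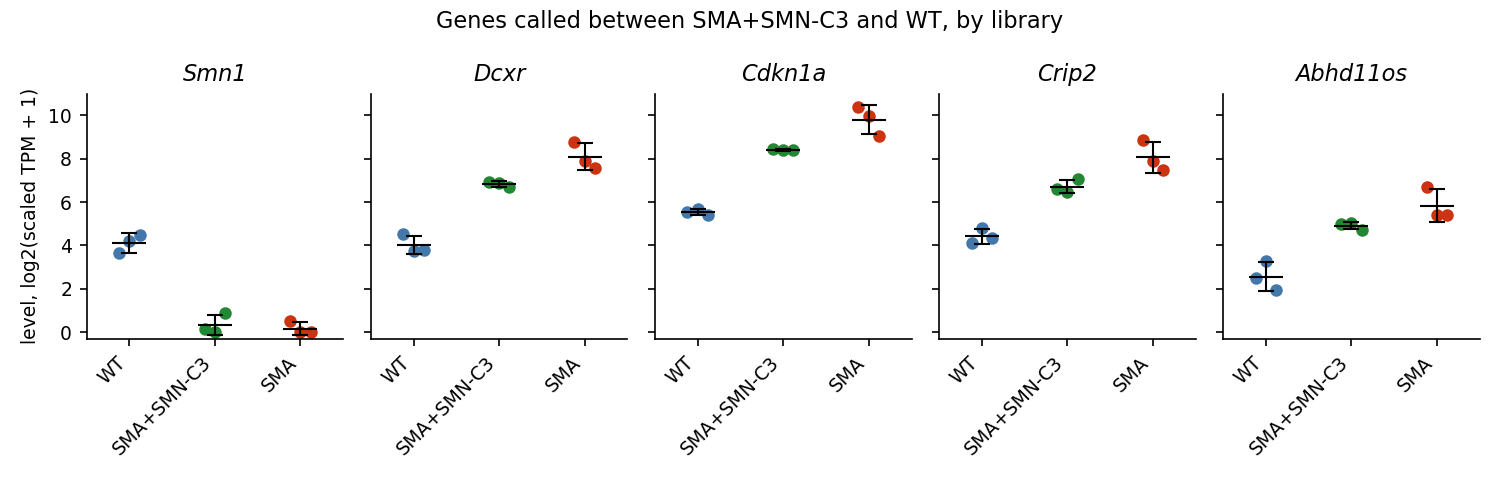
Level in log2(scaled TPM + 1) of the 5 genes called between SMA+SMN-C3 and WT, 1 point per library in WT, SMA+SMN-C3 and SMA; bars give the mean and SD of 3 libraries. Dcxr, Cdkn1a, Crip2 and Abhd11os lie between WT and SMA without overlap, and Smn1 is near 0 in both SMA groups.

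Each of these 5 genes was also called between SMA and WT, in a comparison that used the same WT libraries: the changes were -3.94 for Smn1, 4.06 for Dcxr, 4.25 for Cdkn1a, 3.65 for Crip2 and 3.27 for Abhd11os. Between SMA+SMN-C3 and SMA none of the 5 was called.

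The block of replicate numbers bears on these calls. With the number as a term the same 5 genes were called in the fit of all 15 libraries. A fit of the 6 libraries alone called 1 gene, Cdkn1a, and the same fit with the replicate block called 0 (limma, 1291 genes at an unadjusted p under 0.05).

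Beyond the called genes, the lists and the genes that came next were described by fixed rules. The higher genes with the smallest p, among those with a mean of at least 5 scaled TPM and no overlap, were chosen for their difference, so their values are a description. None of the 6 that follow the called genes passed adjustment (limma adjusted p 0.086 to 0.14).

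Ephx1, the microsomal epoxide hydrolase and a p53 target, was at 7.03, 9.13 and 17.6 scaled TPM in WT, 30.2, 47.8 and 42.9 in SMA+SMN-C3 and 54.3, 37.1 and 35.2 in SMA. The treated and untreated SMA libraries overlapped, and both lay above WT. The change from WT was 1.82 (SE 0.32, limma adjusted p = 0.086), against 1.89 for SMA and WT (limma adjusted p = 0.012).

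Tspo, the translocator protein of the outer mitochondrial membrane, was at 3.26, 5.32 and 3.64 in WT, 26.8, 20.5 and 13.5 in SMA+SMN-C3 and 39.7, 25 and 10.7 in SMA. Its treated libraries fell inside the SMA range, with a change from WT of 2.04 (SE 0.39). Cox6b2, a cytochrome c oxidase subunit known from testis, was at 13.7, 47.6 and 29.7 in WT, 96.9, 77.5 and 83.4 in SMA+SMN-C3 and 97.1, 110 and 75.6 in SMA, a change of 1.63 (SE 0.34). For both genes the change between SMA+SMN-C3 and SMA was small, -0.17 for Tspo and -0.12 for Cox6b2.

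Aen, an exonuclease induced by p53, was at 14.7, 34.9 and 34.2 in WT, 82.1, 66.6 and 85.1 in SMA+SMN-C3 and 152, 75.3 and 96.0 in SMA, a change from WT of 1.54 (SE 0.31). Fam110a, a centrosome-associated protein, was at 2.08, 3.89 and 2.96 in WT, 11.4, 10.5 and 13.2 in SMA+SMN-C3 and 31.9, 17.1 and 15.8 in SMA. The zinc finger gene Zfp87 was at 14.3, 29.1 and 31.7 in WT, 58.7, 96.9 and 70.5 in SMA+SMN-C3 and 126, 131 and 92.0 in SMA. Fam110a did not overlap between any of the groups, with treated libraries in the middle. Without WT replicate 1 the 6 changes were 1.56 for Ephx1, 1.52 for Fam110a, 1.92 for Tspo, 1.25 for Zfp87, 1.14 for Aen and 1.16 for Cox6b2.

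The lower genes chosen in the same way, Smn1 apart, had adjusted p-values of about 0.14 (limma), and none was called. Tia1, an RNA-binding protein of stress granules, was at 53.4, 39.5 and 36.0 in WT, 15.3, 17.7 and 14.8 in SMA+SMN-C3 and 19.5, 30.4 and 15.9 in SMA, a change of -1.36 (SE 0.27). Mccc2, a subunit of the methylcrotonoyl-CoA carboxylase of leucine breakdown, was at 35.6, 40.0 and 38.4 in WT, 15.2, 10.8 and 17.6 in SMA+SMN-C3 and 18.4, 15.7 and 17.7 in SMA, a change of -1.35 (SE 0.28). For both genes the treated and untreated SMA libraries overlapped, and all of them were under every WT library.

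Slc37a1, a transporter of the endoplasmic reticulum, differed in its pattern. It was at 13.2, 13.2 and 13.5 in WT and 11.1, 9.42 and 13.3 in SMA, and at 4.32, 4.79 and 3.23 in SMA+SMN-C3, a change from WT of -1.50 (SE 0.31). Here the treated libraries were low and the untreated ones close to WT, with a change from SMA of -1.26 (SE 0.31, limma adjusted p = 0.23). Sfrp4, a secreted Wnt antagonist, was at 23.0, 13.6 and 20.9 in WT, 3.78, 4.80 and 6.41 in SMA+SMN-C3 and 6.54, 7.13 and 15.6 in SMA.

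The other 5 lower genes were each highest in WT replicate 1, as were Tia1 and Sfrp4. Slc10a7 was at 57.8, 13.3 and 7.10 in WT, Guf1 (a mitochondrial translation factor) at 87.9, 24.6 and 27.0, Gm10974 at 185, 41.6 and 24.4, Atp11b (a phospholipid flippase) at 91.4, 51.7 and 52.0 and Sgcz (zeta-sarcoglycan) at 17.5, 12.6 and 10.8. Without that library the change went from -2.68 to -1.87 for Slc10a7, from -2.07 to -1.50 for Guf1, from -3.45 to -2.63 for Gm10974, from -1.91 to -1.65 for Atp11b, from -1.40 to -1.22 for Sgcz, from -1.36 to -1.20 for Tia1 and from -1.74 to -1.60 for Sfrp4.

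**Figure D2:**
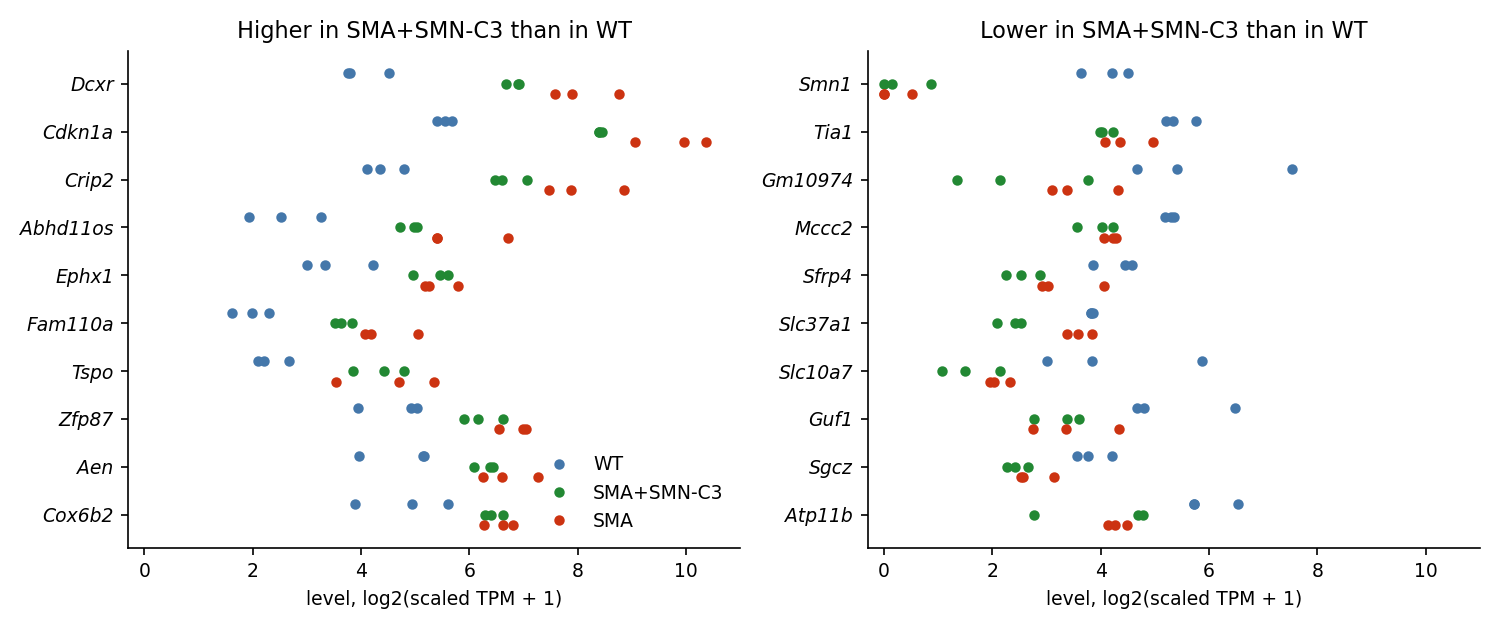
Levels in log2(scaled TPM + 1), 1 point per library, of the 10 higher (left) and 10 lower (right) genes with the smallest p between SMA+SMN-C3 (green) and WT (blue), with SMA in red. Treated libraries lie between WT and SMA for Cdkn1a, Dcxr, Crip2 and Fam110a, within the SMA range for Tspo, and below SMA for Slc37a1.

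Differences from WT ran with gene length, and this trend was weaker, but still present, without WT replicate 1. Among the genes with a mean of at least 5 scaled TPM, no overlap and an unadjusted p under 0.05, the 386 lower genes had a median span of 68.7 kb and the 360 higher genes of 10.5 kb, against 23.5 kb for all 9813 genes at that level. Over 4 equal bins of genes from the shortest to the longest, the median change was 0.24, 0.14, -0.02 and -0.25. Without WT replicate 1 it was 0.09, 0.07, 0.03 and -0.08. In the bin of the longest genes the lower genes at an unadjusted p under 0.05 went from 284 to 104 of 2385, and the higher ones from 27 to 13. Over all genes tested the lower ones went from 870 (5.64%) to 472 (3.09%), and the higher ones from 728 (4.72%) to 274 (1.79%). In the bin of the shortest genes 249 higher and 33 lower became 70 and 39. The median deviation of WT replicate 1 from the mean of 15 libraries went from -0.44 in the shortest to 0.49 in the longest genes.

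**Figure D3:**
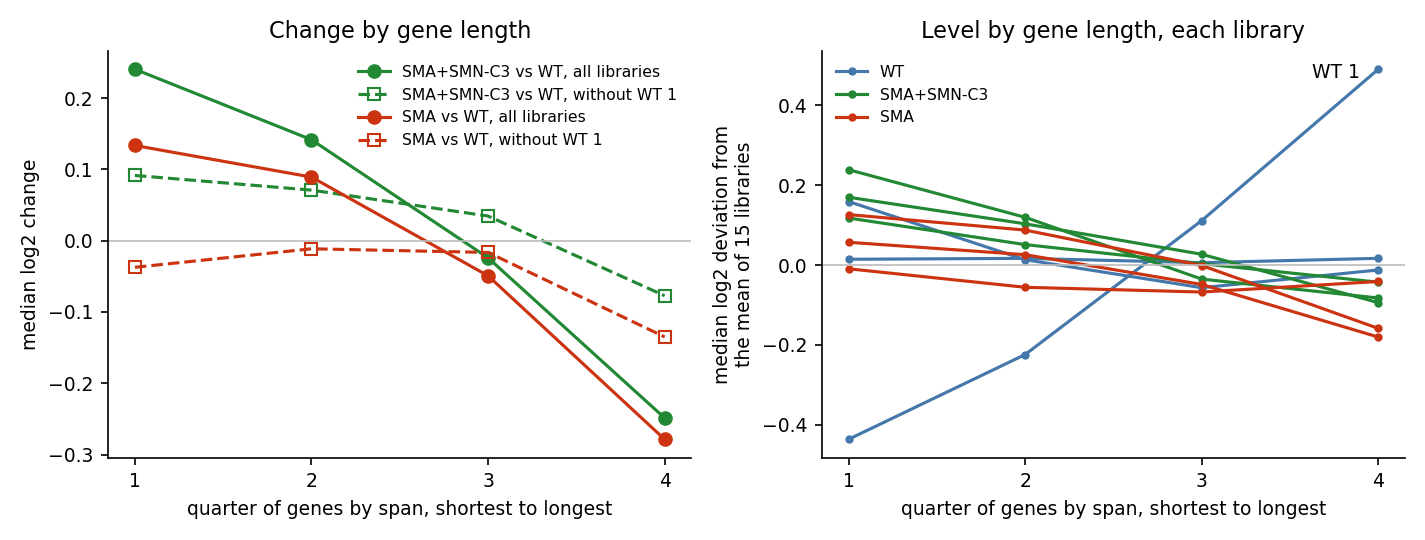
Left, median log2 change against WT in 4 equal bins of genes ordered by genomic span, for SMA+SMN-C3 and SMA, with all libraries (filled, solid) and without WT replicate 1 (open, dashed). Right, median log2 deviation of each library from the mean of 15 libraries; WT replicate 1 runs from -0.44 to 0.49 and crosses the others.

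The p53 targets were read as lists, which were compiled with earlier results of these data known and so give no independent evidence of direction. Of 47 target genes, all tested, 2 were called higher, 9 (19.1%) were higher at an unadjusted p under 0.05, against 4.72% of all genes, and 0 were lower, against 5.64%. In 14 (29.8%) the treated libraries all lay above WT, against 6.24% of all genes. The median change was 0.52, against -0.01 over all genes. Set beside it, the median between SMA and WT was 1.01 and between SMA+SMN-C3 and SMA -0.48. Without WT replicate 1 the median was 0.33, with 7 higher (14.9%, against 1.79%) and 0 lower (against 3.09%).

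Within the arrest and feedback genes (19 tested) the median was 0.57 (0.39 without WT replicate 1). At an unadjusted p under 0.05, 4 (21.1%, against 4.72% of all genes) were higher: Cdkn1a, Dcxr, Phlda3 and Ccng1. Dcxr, a metabolic enzyme, was placed in this list with earlier results of these data known. Phlda3, an inhibitor of Akt, was at 50.5, 143 and 157 scaled TPM in WT, 257, 278 and 257 in SMA+SMN-C3 and 504, 310 and 295 in SMA. Ccng1, cyclin G1, was at 27.3, 13.1 and 20.9 in WT, 47.4, 39.0 and 36.8 in SMA+SMN-C3 and 87.5, 41.1 and 52.2 in SMA. For Phlda3 the treated libraries stood between the other groups without overlap, and its change of 1.33 (SE 0.40, limma adjusted p = 0.42) went to 0.81 without WT replicate 1. For Ccng1 the change was 1.02 (SE 0.34, limma adjusted p = 0.45), and 1.25 without that library.

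The death genes (14 tested) had a median of 0.52, with 4 (28.6%, against 4.72% of all genes) higher at an unadjusted p under 0.05. Without WT replicate 1 the median was 0.42, with 2 higher (14.3%, against 1.79%). Besides Aen the 4 were Pidd1, Bbc3 and Bax. Bax, the pore-forming effector of apoptosis, was at 110, 196 and 175 in WT, 232, 240 and 226 in SMA+SMN-C3 and 320, 255 and 252 in SMA. Bbc3, which encodes PUMA, was at 7.49, 23.7 and 22.7 in WT, 23.2, 40.7 and 38 in SMA+SMN-C3 and 53.2, 43.0 and 43.5 in SMA. Bax did not overlap between WT and the treated libraries and Bbc3 did. Their changes, 0.58 and 0.99 (limma adjusted p = 0.47 and 0.46), went to 0.33 and 0.49 without WT replicate 1.

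In the repair and metabolism genes (14 tested) Ephx1 alone had an unadjusted p under 0.05 (7.14% higher, against 4.72% of all genes). The median of 0.25 went to 0.03 without WT replicate 1. The 8 regulators of p53 had a median of -0.16 (-0.18 without WT replicate 1). At an unadjusted p under 0.05, 1 was lower, Atm (12.5%, against 5.64% of all genes), and 0 without that library. Atm was at 16.9, 3.14 and 2.46 in WT, 0.966, 1.07 and 1.19 in SMA+SMN-C3 and 3.84, 4.31 and 0.942 in SMA. Its change of -1.62 (SE 0.57, limma adjusted p = 0.45) went to -0.88 without WT replicate 1. Trp53 itself was at 18.0, 17.0 and 14.6 in WT, 17.1, 35.8 and 21.6 in SMA+SMN-C3 and 46.3, 33.2 and 31.3 in SMA, and Mdm2, the ligase that degrades p53, at 10.6, 10.8 and 14.1, at 14.0, 17.2 and 19.5 and at 46.3, 22.6 and 35.8. For both genes treated and WT libraries overlapped, and the changes from WT of 0.50 and 0.48 did not pass (limma adjusted p = 0.52 each).

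Among other members of the SMN pathway, the 9 genes of the SMN complex had a median of 0.29 (0.03 without WT replicate 1). Ddx20, the helicase Gemin3, was at 5.30, 3.05 and 4.31 in WT, 8.55, 9.42 and 5.84 in SMA+SMN-C3 and 7.48, 4.16 and 5.10 in SMA, a change of 0.78 (SE 0.31, limma adjusted p = 0.47) with no overlap from WT. The 18 Sm and LSm genes had a median of 0.18 (0.10 without WT replicate 1). At an unadjusted p under 0.05, 1 was higher, Snrpb (5.56%, against 4.72% of all genes). Snrpb, which encodes Sm proteins B and B', was at 81.7, 147 and 132 in WT, 190, 254 and 216 in SMA+SMN-C3 and 218, 199 and 188 in SMA, a change of 0.90 (SE 0.22, limma adjusted p = 0.30). Without WT replicate 1 the change of Snrpb was 0.64. The 10 genes of the minor spliceosome had a median of -0.17, and -0.01 without WT replicate 1.

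The identity genes of motor neurons showed no called difference from WT. Their 19 members had a median of 0.09 (0.14 without WT replicate 1), beside -0.46 between SMA and WT. At an unadjusted p under 0.05, 1 was higher (Slc18a3) and 1 lower (Mecom). These are shares of 5.26% each, near the 4.72% and 5.64% of all genes. Chat, the choline acetyltransferase, was at 95.6, 87.6 and 112 in WT, 113, 142 and 119 in SMA+SMN-C3 and 69.6, 64.6 and 84.7 in SMA. Slc18a3, the vesicular acetylcholine transporter that lies within the Chat locus, was at 151, 299 and 368 in WT, 446, 551 and 540 in SMA+SMN-C3 and 439, 350 and 462 in SMA. Mecom, a transcription factor gene, was low throughout, at 1.87, 1.78 and 2.14 in WT, 1.15, 0.00927 and 0.733 in SMA+SMN-C3 and 0.668, 1.18 and 0.420 in SMA. Every treated library was above every WT library for Chat and Slc18a3, and below every WT library for Mecom. The changes were 0.34, 0.99 and -0.91 (limma adjusted p = 0.54, 0.42 and 0.47), and that of Slc18a3 was 0.61 without WT replicate 1.

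Nefh, the heavy neurofilament chain, was at 830, 1089 and 1113 in WT, 1159, 1609 and 1320 in SMA+SMN-C3 and 729, 704 and 811 in SMA. Its treated libraries were all above WT, by 0.43 (SE 0.21, limma adjusted p = 0.48), and by 0.29 without WT replicate 1. For the 14 neurofilament and axonal transport genes, of which it is one, the median was 0.07, with 0 at an unadjusted p under 0.05, and -0.01 without WT replicate 1. For the 18 genes of the neuromuscular junction and synaptic vesicles it was 0.14, with 1 higher and 1 lower (5.56% each, near the 4.72% and 5.64% of all genes). Without that library it was 0.01, with 0 in either direction. The 17 ion channel genes had a median of -0.27 and the 16 transmitter receptor genes of -0.28, which were -0.05 and -0.05 without WT replicate 1.

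Some transmitter receptor genes stood outside the WT range in all treated libraries. Grin3b, an NMDA receptor subunit of motor neurons, was low throughout, at 1.86, 1.17 and 1.55 in WT, 2.81, 5.40 and 4.49 in SMA+SMN-C3 and 0.108, 0.785 and 1.40 in SMA. Gria2, the AMPA receptor subunit that limits calcium entry, was at 235, 79.2 and 94.3 in WT, 51.3, 53.5 and 45.4 in SMA+SMN-C3 and 51.3, 57.5 and 51.0 in SMA. All libraries of both SMA groups were below WT for Gria2, with a change of -1.26 for SMA+SMN-C3 (limma adjusted p = 0.26; -0.78 without WT replicate 1) and -1.17 for SMA.

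In the stress lists no gene was called. The integrated stress response (17 genes) had a median of 0.26 and the AP-1 and axon injury list (13 tested of 15) of 0.17, which were 0.11 and 0.03 without WT replicate 1. Over all alternatives the AP-1 median ranged from -0.02 to 0.51. Junb, an AP-1 subunit, was at 8.09, 9.24 and 7.56 in WT, 19.8, 15.5 and 16.6 in SMA+SMN-C3 and 23.1, 12.5 and 13.5 in SMA, a change of 0.97 (SE 0.30, limma adjusted p = 0.43). Ier3, an immediate early gene, was at 6.40, 28.6 and 19.1 in WT, 38.8, 46.5 and 36.6 in SMA+SMN-C3 and 34.9, 33.4 and 32.2 in SMA, a change of 1.34 that was 0.76 without WT replicate 1. Both lay above every WT library in all treated libraries.

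The interferon and MHC class I list (11 tested of 15) had a median of 0.17 (0.13 without WT replicate 1). At an unadjusted p under 0.05, 2 members (18.2%), Tap1 and Tap2, were higher, against 4.72% of all genes, and 1 (9.09%, against 1.79%) without WT replicate 1. Tap1, a peptide transporter of antigen presentation, was at 0, 0.208 and 1.22 in WT, 2.58, 6.92 and 2.66 in SMA+SMN-C3 and 20.1, 9.65 and 7.92 in SMA, a change of 1.76 (SE 0.45, limma adjusted p = 0.30). Of the microglial complement genes, C1qa and C1qb stood above WT and C1qc overlapped it. C1qa was at 2.24, 5.74 and 3.96 in WT, 11.1, 11.3 and 7.41 in SMA+SMN-C3 and 15.9, 14.8 and 12.9 in SMA. The microglial gene Cx3cr1 lay the other way, at 2.47, 2.48 and 2.04 in WT and 1.51, 0.826 and 1.10 in SMA+SMN-C3. Over the 13 microglial genes tested of 14 the median was -0.11. At an unadjusted p under 0.05, 2 were higher, C1qa and C1qb (15.4%, against 4.72% of all genes), and 0 lower. Without WT replicate 1 the median turned to 0.07, with 1 higher (7.69%, against 1.79%) and 0 lower. The part of these cells in the levels of other genes was not tested.

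The mitochondrially encoded genes (13) had a median of -0.66 and were lower in all members, but -0.02 without WT replicate 1. The nuclear genes of the respiratory chain (18) had a median of 0.16, and the sterol synthesis genes (16) of 0.20, which were 0.07 and 0.10 without that library. For other cells the medians were -0.29 for 13 astrocyte, 0.23 for 14 oligodendrocyte, -0.42 for 11 vascular, -0.02 for 5 interneuron and -0.89 for 5 red blood cell genes. Without WT replicate 1 they were -0.28, 0.05, -0.39, -0.41 and -0.86 in the same order. No gene of these lists was called.

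**Figure D4:**
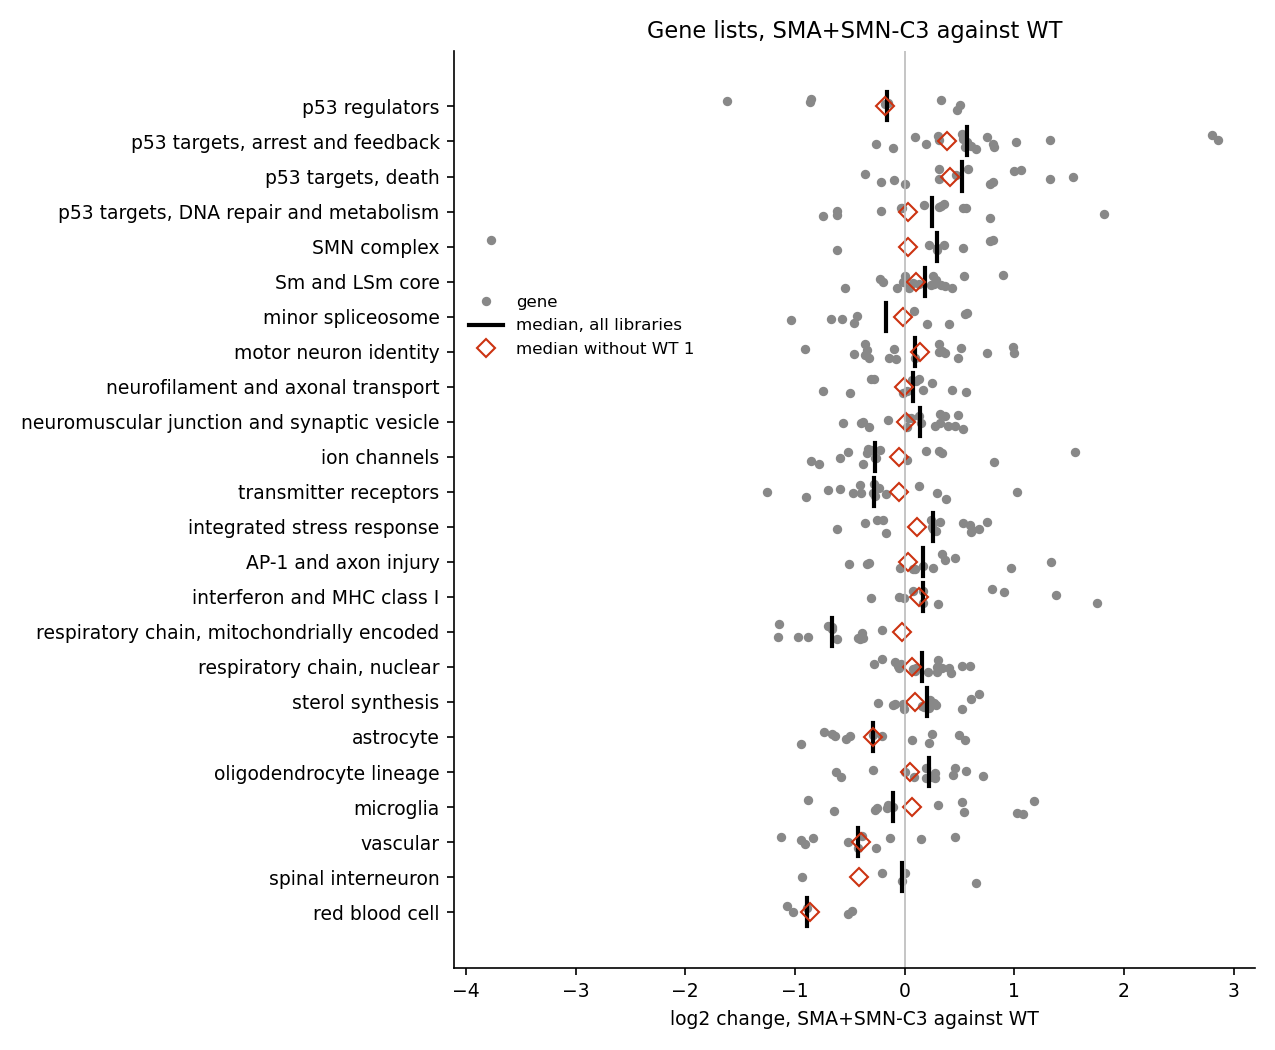
Log2 change between SMA+SMN-C3 and WT of each tested gene in 24 lists (grey), with the median over all libraries (black bar) and without WT replicate 1 (red diamond). The medians of the arrest and death targets of p53 stay above 0.3 in both, while that of mitochondrially encoded genes moves from -0.66 to -0.02.

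What treatment left can be set against what it brought near WT. Between SMA and WT 46 genes (0.298%) were called, of which 44 exceeded WT and 2 were below it. Between SMA+SMN-C3 and SMA 10 genes (0.0648%) were called, all lower after treatment. These comparisons share libraries with the main one, and the genes were chosen for high levels in SMA, so their levels are given side by side only.

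The levels of 3 of the genes called in both of these comparisons are given first. Ly6d, a surface protein, was listed at 0 in all WT and all treated libraries and at 37.9, 48.0 and 6.55 scaled TPM in SMA. Plek2, a pleckstrin-family protein, was at 1.75, 2.88 and 4.01 in WT, 4.13, 6.02 and 5.86 in SMA+SMN-C3 and 72.1, 29.4 and 20.3 in SMA. The gene 1700007K13Rik was at 8.24, 6.81 and 4.74 in WT, 16.1, 29.5 and 15.6 in SMA+SMN-C3 and 166, 84.2 and 60.5 in SMA. Treated libraries of all 3 genes lay below every SMA library. They were all above WT for Plek2, by 0.74 (SE 0.39, limma adjusted p = 0.50), and for 1700007K13Rik, by 1.46 (SE 0.34, limma adjusted p = 0.22). The change of Plek2 was 0.51 without WT replicate 1. Also called in both comparisons were Traj45, Bglap2, Tcea3, Espn, Them5 and Gjb5, whose treated libraries did not separate from WT. Traj45 and Bglap2 were at 0 in all WT and all treated libraries. The changes from WT were -0.02 for Tcea3, -0.23 for Espn, 0.11 for Them5 and 0.67 for Gjb5.

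Other p53 targets, among them Plk2 and Perp, were called between SMA and WT but not between SMA+SMN-C3 and SMA. In the latter comparison these 2 genes had a limma adjusted p of 0.099 and 0.17. Plk2, a stress-induced kinase, was at 7.46, 7.52 and 6.41 in WT, 10.6, 11.6 and 10.6 in SMA+SMN-C3 and 53.3, 24.8 and 24.6 in SMA. Perp, a membrane protein of p53-dependent death, was at 7.92, 6.11 and 10.2 in WT, 12.9, 13.2 and 17.3 in SMA+SMN-C3 and 108, 33.9 and 36.0 in SMA. In both genes all treated libraries exceeded all WT libraries, by 0.56 and 0.78 on the log2 scale (limma adjusted p = 0.49 and 0.48). The p53 targets Fas, Gtse1 and Pmaip1 were likewise called between SMA and WT only, but their treated libraries overlapped WT. Their changes from WT were 1.07, 0.53 and 0.80 (limma adjusted p = 0.49, 0.56 and 0.53). Gpx3, a secreted glutathione peroxidase, is not in the p53 lists and was called between SMA and WT only. It was at 51.1, 112 and 94.8 in WT, 200, 243 and 221 in SMA+SMN-C3 and 644, 284 and 270 in SMA, with no overlap between the groups.

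**Figure D5:**
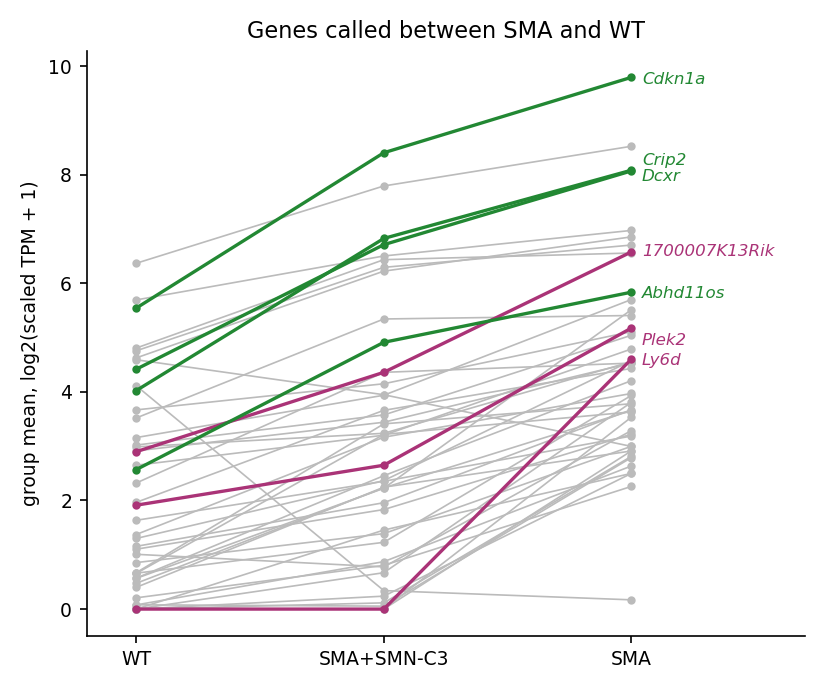
Group means in log2(scaled TPM + 1) of the 46 genes called between SMA and WT, 1 line per gene through WT, SMA+SMN-C3 and SMA. Green lines mark the 4 genes that were also called higher in SMA+SMN-C3 than in WT, whose treated means lie between the other 2. Purple lines mark 3 of the genes called between SMA+SMN-C3 and SMA, of which Ly6d is at 0 in WT and SMA+SMN-C3.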

How the data were processed

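Per the submitters' processing notes, kallisto 0.44.0 was used, with builds GRCm38.p6 and mm10; other steps are not given in the sources used here. The authors deposited TPM per gene and per transcript for 15 libraries. TPM keeps no depth, so no counts or intervals are given. TPM values were scaled by the median of ratios, set to log2 with a pseudocount of 1, filtered at 1 TPM in at least 3 libraries and fitted with limma 3.58.1 in R 4.3.3 (1 mean per group, all 15 libraries, variance trend, two-sided, threshold 0.05). The fit was tested on simulated data. GENCODE M21 (GRCm38) matched 99.6% of symbols and was inferred as the annotation.

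Same-numbered libraries of SMA+SMN-C3 and WT deviated together from their group means (r across genes 0.268, 0.101 and 0.175). Deviations from a group mean sum to 0, so these values are not independent. Replicate 1 also had the highest mitochondrial share in both groups, and its part in them was not tested. The numbers were thus used as a possible pairing in alternative fits only, from the data and not from a stated design. Those of the other comparisons did not.

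Genes are named if called, if among the 10 higher or 10 lower with the smallest p (mean of at least 5, no overlap, unadjusted p under 0.05), if among the 4 with the smallest p in a list, or if called between SMA and WT. Smn1, Trp53, Cdkn1a, Mdm2, Mdm4, Ccng1, Dcxr and Chat were set by name. Groups, lists and rules were chosen with earlier results of these data known. Alternatives covered scaling, pseudocount, filter, libraries, weights, a mitochondrial term and the replicate block. One result is not reported here.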

Additional observations from a re-analysis of the deposited data

How the results depend on the processing

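Between SMA+SMN-C3 and WT, where 5 genes were called, 3 were called with no scaling between libraries, 1 with only the groups compared, 65 with array weights, 9 with the mitochondrial share as a term and 10 without WT replicate 1 and SMA+Pifithrin-alpha replicate 3. With the replicate block the count was 5, and 0 with the replicate block in the groups compared alone, an alternative chosen after seeing the data (limma, 1291 genes at an unadjusted p under 0.05). When each library was left out in turn there were 3 to 11 calls, with 11 without WT replicate 3 and 3 without SMA+SMN-C3 replicate 1 or replicate 3. Between SMA and WT, 46 became 7 with only the groups compared, 121 with array weights and 2 with the replicate block in those groups, and 20 to 56 on leaving out 1 library, the lowest without SMA replicate 1. Between SMA+SMN-C3 and SMA, 10 became 5 with quantile normalization, 3 with a filter at a mean of 5 TPM, 4 with no filter, 177 with array weights and 46 without WT replicate 1 and SMA+Pifithrin-alpha replicate 3. It was 0 with only the groups compared, with and without the replicate block (limma, 1663 and 1900 genes at an unadjusted p under 0.05), and 1 to 11 on leaving out 1 library, with 1 without SMA replicate 1 or replicate 2, 3 without SMA+SMN-C3 replicate 1, 4 without replicate 2 and 2 without replicate 3. The cause of these differences was not tested. Same-numbered libraries did not deviate together in the last 2 comparisons, where the block in the fit of all libraries gave 47 and 11 calls. For 63 named genes under these alternatives, 1125 changes in all, none had the opposite direction. Most of these genes were chosen for a small p in these same data. A steady direction was thus largely set by the choice and is no support. TPM carries no depth, so how far counting error limits the low genes is unknown.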

Other observations

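Mccc2 lies 109 kb from Smn1 on chromosome 13. It was at 38.0 ± 2.2 scaled TPM in WT (SD, n = 3), 14.6 ± 3.4 in SMA+SMN-C3, 17.3 ± 1.4 in SMA, 17.7 ± 3.5 in SMA+MW150 and 15.4 ± 5.3 in SMA+Pifithrin-alpha. The highest library among all 12 of the Smn-/- groups was at 21.4 and the lowest WT library at 35.6, so WT did not overlap any of them. Of 19 genes tested within 1 Mb of Smn1, a window chosen after the values were seen, 2 (10.5%, against 10.4% of all genes tested) had an unadjusted p under 0.05 between SMA+SMN-C3 and WT, a share near that of all genes: Mccc2, lower by a change of -1.35 (limma adjusted p = 0.14), and Cdk7, higher by 0.83 (limma adjusted p = 0.47).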
